A study of Caenorhabditis elegans with 8 samples.

Results

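The lipocalin-related lpr genes of Caenorhabditis elegans were followed on 2-colour Agilent oligonucleotide arrays in larvae leaving the dauer stage and in dauer larvae. The family was taken by gene symbol, from lpr-1 to lpr-7. Of these 7 genes, 4 had probes under their own symbol, namely lpr-1, lpr-2, lpr-3 and lpr-4, among 15078 genes tested in all. The other 3, lpr-5, lpr-6 and lpr-7, were not analysed here. lpr-1 (Y65B4BR.2), lpr-3 (W04G3.8) and lpr-4 (W04G3.3) had 1 probe each and lpr-2 (T12A7.5) had 6.

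All worms were of the wild-type strain N2 Bristol. The dauer-exit worms (dauer-exit-12hours, n = 4 arrays) were purified dauers placed on bacterial lawns for 12 h. The dauers (n = 4 arrays) came from liquid cultures, were purified with detergent and density steps, and had not been fed again. Mix-stage worms, grown on plates and holding all stages, were combined into 1 pool of RNA that was hybridised on every array as the common partner. Each sample was RNA of many animals, and the study grew its replicates side by side, so the errors given here reflect differences among parallel cultures. The paper states that purified dauers were kept overnight in a salt solution, then used for RNA or to start recovery. Dauer-exit worms thus shared the dauers' liquid cultures, antibiotics and culture temperature, and differed by 12 h on plates with bacteria. Stage, food and medium therefore changed together between dauers and dauer exit, and these cannot be told apart. From mix-stage worms dauers differed in stage, medium, added antibiotics and culture temperature, which cannot be told apart either. The sources disagree on the temperature of the dauer cultures, which in each was above that of the recovery plates. The deposited values are log2 ratios. Here each is given as the worms' own RNA over mix-stage RNA. A value of 0 thus means the level of the mix-stage pool after the authors' normalisation.

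Lipocalins are small secreted proteins whose beta-barrel forms a pocket for lipids and other hydrophobic molecules. In C. elegans, members of the lpr family act in the extracellular matrix that lines the outer surface of the epidermis and the inside of narrow tubes. LPR-1 is needed to keep the lumen of the excretory duct and pore joined and open. LPR-3 is part of the precuticle, the transient matrix that is laid down before each new cuticle. The dauer cuticle is shed at the moult that follows recovery, and a worm that feeds again builds a new cuticle beneath it.

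Signal was recorded from whole worms. Fewer cells of a type and less RNA per cell cannot be told apart in such samples. Equal amounts of total RNA were labelled, so a ratio is not an amount per worm. The paper measured a lower share of mRNA in the total RNA of dauers than of mix-stage worms. Medians over all features lay between -0.087 and -0.024 on the dauer arrays. The place of 0 rests on the authors' normalisation, and how far that moves small ratios was not tested. Of 6 genes listed as marks of the dauer state, hsp-12.6 and mtl-1 were called higher in dauers than in mix-stage worms. Of all genes 4.92% were called higher in that comparison. The other 4 listed genes were not called in dauers, where icl-1 was at 0.54. There ctl-1, a catalase gene, was at -1.05 and sod-3, a superoxide dismutase gene, at -0.067. The last of the 4, cut-1, a cuticlin gene known from dauer formation, was at -0.078 in dauer exit and -0.035 in dauers. The medians of the 15 measured adult and germline genes lay between -3.80 and -1.75 on the dauer-exit arrays and between -3.67 and -1.95 on the dauer arrays. Their part in the results below was not tested. The number of arrays limits the precision, and a difference between the stages had a median standard error (SE) of 0.31.

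lpr-4 and lpr-3 were 22.2-fold and 21.2-fold higher in dauer exit than in dauers. These 2 of the 4 measured lpr genes passed the test, where 4.01% of all genes were called. Both were higher, against 1.88% of all genes called higher in dauer exit, and 0 of the 4 were called lower by limma, or had an unadjusted p under 0.05 in that direction, against 2.13% of all genes called. lpr-1 was 3.77-fold higher by its mean and just missed the threshold. lpr-2 lay on the other side, with a mean that was 1.33-fold lower in dauer exit, and did not pass. By the size of the difference lpr-4 was the 6th and lpr-3 the 7th highest of the 15078 genes. lpr-1 was the 239th. Differences are given as dauer exit minus dauer, so a positive one is higher in dauer exit, and the study itself used the opposite direction.

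lpr-4 codes for a lipocalin-related protein. Its log2 ratios in dauer-exit worms were 0.014, 0.66, -0.058 and 2.00 on replicates 1 to 4. In dauers they were -3.95, -4.18, -3.38 and -3.74. All dauer-exit arrays lay above all dauer arrays, and the dauer values sat close together (SD 0.34, n = 4) while the dauer-exit values spread more widely (SD 0.95, n = 4). The means were 0.65 and -3.81 on the log2 scale, which gave a difference of 4.47 (SE 0.44, limma adjusted p = 0.00180). This is 22.2-fold, with a 95% interval of 11.1-fold to 44.0-fold.

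lpr-3, the precuticle component, gave 0.43, 0.43, -0.21 and 1.80 on the dauer-exit arrays. The dauer arrays gave -5.03, -4.37, -2.66 and -3.10. Again the stages did not overlap, but here the dauer values fell into a lower pair and a higher pair. The lower pair, replicates 1 and 2, had the worms' own RNA in Cy5, and the higher pair, replicates 3 and 4, had it in Cy3. The difference was 4.41 (SE 0.58, limma adjusted p = 0.00471), or 21.2-fold with a 95% interval of 8.55-fold to 52.6-fold.

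lpr-1, which keeps the excretory tubes open, had ratios of -0.72, 0.89, -0.011 and -0.88 in dauer exit. In dauers it had -2.61, -2.66, -1.17 and -1.94. The stages did not overlap, although the closest values were only -0.88 in dauer exit and -1.17 in dauers. The difference of 1.91 (SE 0.46, 95% interval 0.88 to 2.95) had an adjusted p of 0.0542 by limma. Of 8 fits that each left out 1 array, only that without dauer replicate 3 called it (2.22, limma adjusted p = 0.0278). In the others the limma adjusted p reached 0.146. In both stages the arrays with own RNA in Cy5 were the lower ones, and with a term for dye in the model the same difference of 1.91 had an adjusted p of 0.00737 by limma. In 3 of the 4 lpr genes all dauer-exit arrays lay above all dauer arrays, which held for 4.18% of all genes, and 9.55% of all genes showed no overlap in either direction.

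lpr-2 was the gene that differed in direction. Averaged over its probes it had 0.61, 0.25, 0.33 and -0.18 on the dauer-exit arrays. On the dauer arrays it had 0.36, 0.36, 1.00 and 0.96. The stages overlapped, and the difference was -0.42 (95% interval -0.997 to 0.16, limma adjusted p = 0.543).

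**Figure D1:**
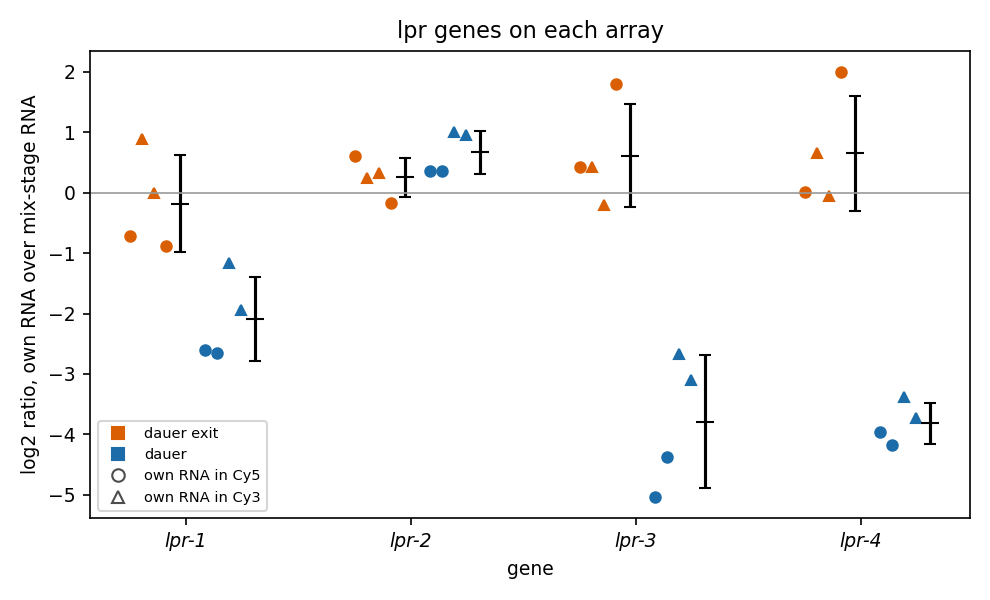
Log2 ratios of own RNA over mix-stage RNA (vertical axis) for lpr-1 to lpr-4 on each of the 8 arrays, with dauer exit in orange left of dauer in blue. Circles are arrays with own RNA in Cy5, triangles those with own RNA in Cy3, and black bars the mean ± SD of 4 arrays. lpr-3 and lpr-4 lie between -0.21 and 2.00 in dauer exit and between -5.03 and -2.66 in dauers, while lpr-2 overlaps.

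Set on the same array, lpr-3 and lpr-4 had a mean difference near 0 in both stages. lpr-4 minus lpr-3 was 0.041 ± 0.31 on the dauer-exit arrays and -0.023 ± 0.84 on the dauer arrays (SD, n = 4 each). In dauers it ran from -0.72 to 1.08, the widest SD of the 6 pairs of lpr genes in that stage. lpr-3 minus lpr-1 was 0.79 ± 1.45 in dauer exit and -1.70 ± 0.53 in dauers. In dauers this difference lay between -2.42 and -1.17, so lpr-3 was further below mix-stage than lpr-1 on every dauer array. On dauer-exit replicate 4 the genes parted most, with lpr-3 and lpr-4 at 1.80 and 2.00, their highest values, and lpr-1 at -0.88, its lowest in that stage.

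The comparison with mix-stage worms shows where each stage stands relative to a growing population. Since the pool counts as a single control, how much mix-stage cultures vary among themselves does not enter these tests, and all comparisons share the same arrays. In dauer exit 0 of the 4 lpr genes were called in either direction by limma, against 9.52% of all genes (0.458% higher and 9.07% lower), and 0 had an unadjusted p under 0.05. The ratios averaged 0.65 for lpr-4 (95% interval -0.046 to 1.36), 0.61 for lpr-3 (-0.31 to 1.54), -0.18 for lpr-1 (-0.91 to 0.55) and 0.25 for lpr-2 (-0.16 to 0.66). The means of lpr-4 and lpr-3 rested in good part on replicate 4, and without it they were 0.21 and 0.22.

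In dauers all 4 were called against mix-stage, 3 of them lower and 1 higher, where 13.6% and 4.92% of all genes were called. lpr-4 was 14.1-fold lower than mix-stage in dauers (-3.81, SE 0.31, limma adjusted p = 7.06e-05). lpr-3 was 13.9-fold lower (-3.79, SE 0.41, limma adjusted p = 0.000245). lpr-1 was 4.27-fold lower (-2.09, SE 0.33, limma adjusted p = 0.00175). For lpr-3 and lpr-4 dauers were thus lowest of the 3 states, and dauer exit and mix-stage could not be separated beyond the spread. For lpr-1 dauers were called below mix-stage, but not below dauer exit. lpr-2 was 1.59-fold higher in dauers than in mix-stage worms (0.67, SE 0.18, limma adjusted p = 0.0304). This call did not survive without dauer replicate 3 (0.56, limma adjusted p = 0.0985), without dauer replicate 4 (0.57, limma adjusted p = 0.130) or without dauer-exit replicate 2, which lends only its spread to the estimate (0.67, limma adjusted p = 0.0513).

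**Figure D2:**
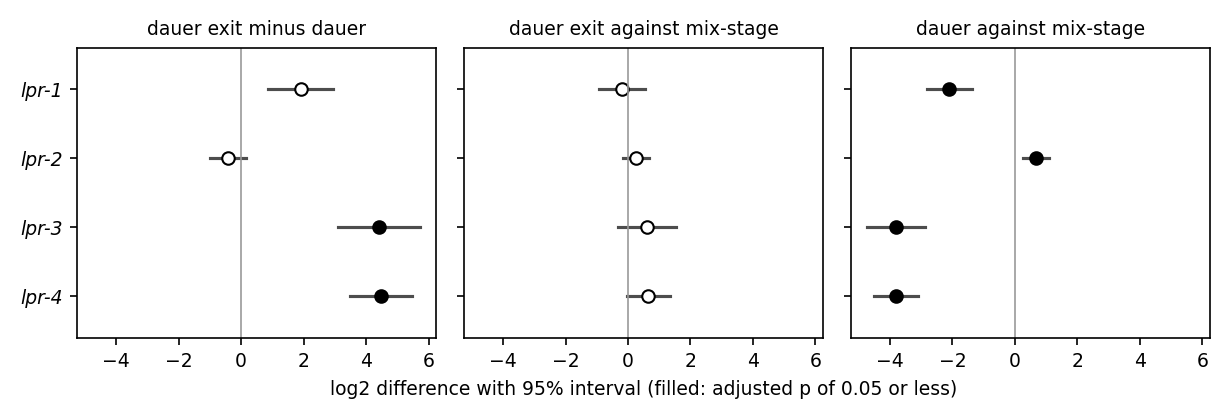
Log2 differences (horizontal axis) of the 4 lpr genes in the 3 comparisons, with 95% intervals from limma. Filled points have an adjusted p of 0.05 or less. lpr-3 and lpr-4 are filled on the right for dauer exit minus dauer and on the left for dauer against mix-stage, and no point is filled for dauer exit against mix-stage.

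The dye in which the worms' own RNA was labelled went with the size of some of these differences. On the Cy5-labelled arrays alone, of which each stage had 2, lpr-3 differed between dauer exit and dauers by 5.82 (limma adjusted p = 0.0659), and within those in Cy3 by 2.99 (limma adjusted p = 0.0382). For lpr-4 the values were 5.08 (limma adjusted p = 0.0973) and 3.86 (limma adjusted p = 0.0360), and for lpr-1 they were 1.83 and 1.99. A stage-by-dye term in limma gave an unadjusted p of 0.00526 for lpr-3 and an adjusted p of 0.341. For lpr-4, lpr-1 and lpr-2 the adjusted p was 0.625, 0.932 and 0.656. Over all 15078 genes this term called 0 by limma, with 1731 at an unadjusted p under 0.05. The lack of calls thus does not show that the differences were independent of dye.

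The 6 probes of lpr-2 did not behave as one. Probe 5129 had -0.14, -0.23, 0.57 and -0.14 in dauer exit. In dauers it had 0.57, 1.13, 1.33 and 1.60, so every dauer array lay above every dauer-exit array, though the closest pair was equal at 0.57 to 2 decimals. It was the only lpr-2 probe called against mix-stage in dauers when every probe was tested by itself (1.16, SE 0.21, limma adjusted p = 0.00493), and it was lower in dauer exit than in dauers by a value that did not pass (-1.14, SE 0.29, limma adjusted p = 0.0881). Probe 39589 had -0.14, 0.29, -0.051 and -0.58 in dauer exit and 0.78, -0.31, 2.17 and 1.28 in dauers.

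Probes 8854 and 12875 stayed between -0.47 and 0.52 on every array. Probe 12875 was the only one with a mean below 0 in dauers (0.22 ± 0.22 in dauer exit and -0.10 ± 0.32 in dauers, SD, n = 4 each). Probe 10359 averaged 0.33 ± 0.51 in dauer exit and 0.78 ± 0.47 in dauers (SD, n = 4 each). Probe 11641 had 3.59 on dauer-exit replicate 1, whereas the other probes ranged from -0.58 to 0.88 over all dauer-exit arrays. Its other dauer-exit values were 0.87, 0.40 and -0.29, and its dauer values ran from 0.20 to 1.48. Without that probe lpr-2 differed between dauer exit and dauers by -0.53 (limma adjusted p = 0.325) and in dauers against mix-stage by 0.61 (limma adjusted p = 0.0325). Without the flat probes 8854 and 12875 the values were -0.64 (limma adjusted p = 0.370) and 0.98 (limma adjusted p = 0.0113). Both choices were made after the values were seen.

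**Figure D3:**
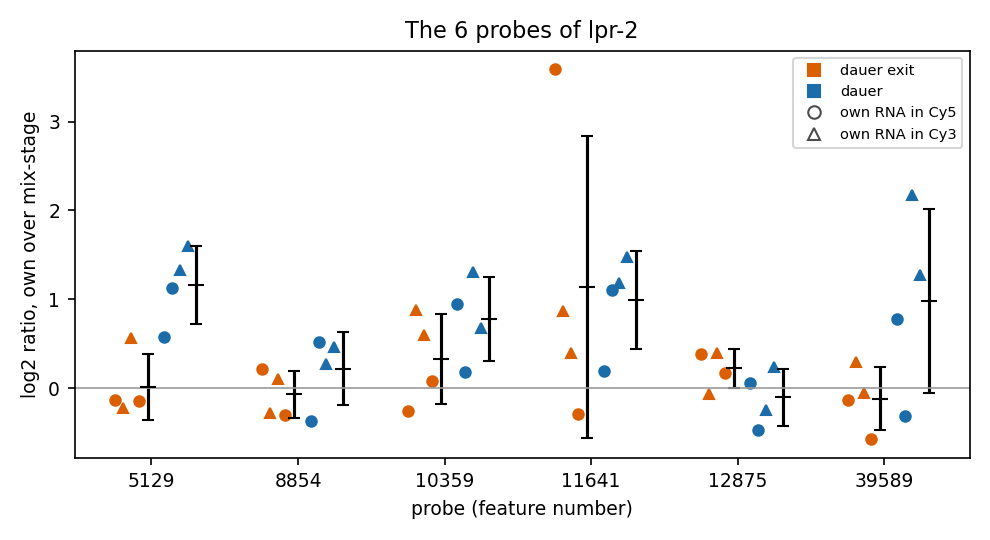
Log2 ratios of own RNA over mix-stage RNA (vertical axis) for each of the 6 lpr-2 probes, named by feature number, on the dauer-exit arrays (orange, left) and the dauer arrays (blue, right). Circles are arrays with own RNA in Cy5, triangles those in Cy3, and bars the mean ± SD of 4 arrays. Probe 5129 lies higher on the dauer arrays, probes 8854 and 12875 stay near 0, and probe 11641 has 1 dauer-exit value of 3.59.

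lpr-3 and lpr-4 belong to one row of genes. In the gene table of assembly WBcel235, lpr-3, lpr-6, lpr-5 and lpr-4 follow each other on chromosome X with no other protein-coding gene between them. lpr-2 is on chromosome IV and lpr-1 on chromosome I. Of the 6 nearest measured protein-coding genes around the row, 3 on either side, 0 were called between dauer exit and dauers by limma. Of all genes 4.01% were called in that comparison. Of the 6, 1 had an unadjusted p under 0.05, and their differences ran from -1.06 (apt-9) to 0.85 (clc-1, a claudin-like gene). clc-1 was lower in dauers than in mix-stage worms (-2.72, SE 0.62, limma adjusted p = 0.0132). Around lpr-2, 0 of 6 neighbours were called by limma, with 1 at an unadjusted p under 0.05. Around lpr-1, 1 of 6 was called, the hedgehog-related gene grl-16, which was higher in dauer exit (3.36, SE 0.54, limma adjusted p = 0.0105). The neighbours were looked up after the members' values were known, and counts over 6 genes are too small to compare with the 4.01%. The letters of the probes were not used here, so how far the lpr-3 and lpr-4 probes could also bind RNA of lpr-5 or lpr-6 was not tested.

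Genes whose proteins share the apical matrix with the lipocalins, or help to deliver it, were higher in dauer exit in part. Of 16 listed genes 12 were measured, 6 were called higher and 0 lower, where 1.88% and 2.13% of all genes were. The list had a median difference of 2.23 where all genes had -0.034. sym-1, which codes for a secreted leucine-rich repeat protein, differed by 3.64 (SE 0.49, limma adjusted p = 0.00489). noah-2 and noah-1, which code for zona pellucida (ZP) domain proteins of the matrix, differed by 3.56 (SE 0.52) and 3.17 (SE 0.38). ptr-4, a patched-related gene needed for moulting, differed by 3.28 (SE 0.28). let-653, which codes for a ZP protein of the excretory duct lining, differed by 1.95 and did not pass (limma adjusted p = 0.0808). fbn-1, a fibrillin-related matrix gene, differed by 0.78 (limma adjusted p = 0.634). Against mix-stage 0 of the 12 were called in dauer exit by limma, where 9.52% of all genes were (0.458% higher and 9.07% lower). At an unadjusted p under 0.05, 2 were higher and 1 lower. In dauers 8 were called lower, where 13.6% of all genes were.

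Of 19 genes listed for the moulting cycle 15 were measured, with a list median of 0.78. In dauer exit 3 were called higher than in dauers and 0 lower, where 1.88% and 2.13% of all genes were. The 3 were mlt-8 (4.10, SE 0.46), mlt-10 (3.22, SE 0.39) and mlt-9 (1.95, SE 0.34), all known from moulting defects when they are silenced. nhr-23, the nuclear hormone receptor gene that drives moulting, was at 0.17 ± 0.28 in dauer exit and -0.067 ± 0.085 in dauers (SD, n = 4 each), and its difference did not pass the test (0.23, SE 0.21, limma adjusted p = 0.716). mlt-8 and mlt-10 were also called above mix-stage in dauer exit, by 1.43 (SE 0.32, limma adjusted p = 0.0224) and 1.17 (SE 0.28, limma adjusted p = 0.0292). On dauer-exit replicate 4, where lpr-3 and lpr-4 were highest, the median of the moulting list was -0.30, its lowest of the dauer-exit arrays. The other dauer-exit arrays had 0.46, 0.37 and 0.29. The apical matrix list was not lowest there. Its median was 0.38 on dauer-exit replicate 4, against 0.21, 0.49 and -0.11 on replicates 1 to 3.

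No gene listed for the excretory tubes was called between the stages, as was true of most genes. The list did not hold let-653, of the excretory duct lining, which was counted with the matrix genes. Of 14 listed genes 13 were measured and 0 were called between dauer exit and dauers by limma, where 4.01% of all genes were. Also 0 had an unadjusted p under 0.05, and the list median was -0.071. The smallest p-values belonged to aqp-8, an aquaporin gene (0.72, SE 0.44, limma adjusted p = 0.540), and lin-48, a transcription factor gene of the duct cell (0.34, SE 0.25, limma adjusted p = 0.644). aqp-8 was below mix-stage in both stages, with -1.91 in dauer exit (limma adjusted p = 0.00473) and -2.62 in dauers (limma adjusted p = 0.000403).

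The lbp genes code for fatty acid-binding proteins, whose beta-barrel is related to that of lipocalins but which are in most cases kept inside the cell. All 9 were measured, and 0 were called between dauer exit and dauers by limma, where 4.01% of all genes were. At an unadjusted p under 0.05, 2 were higher and 1 lower. The list median was 0.43. lbp-6 (1.91, SE 0.48, limma adjusted p = 0.0631) and lbp-3 (1.24, SE 0.33, limma adjusted p = 0.0757) had the smallest p-values. Against mix-stage 4 of the 9 were called lower in dauer exit, where 9.07% of all genes were. These were lbp-2 (-2.12), lbp-3 (-0.92), lbp-6 (-1.70) and lbp-7 (-1.84). In dauers 5 were called below mix-stage, where 13.6% of all genes were.

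**Figure D4:**
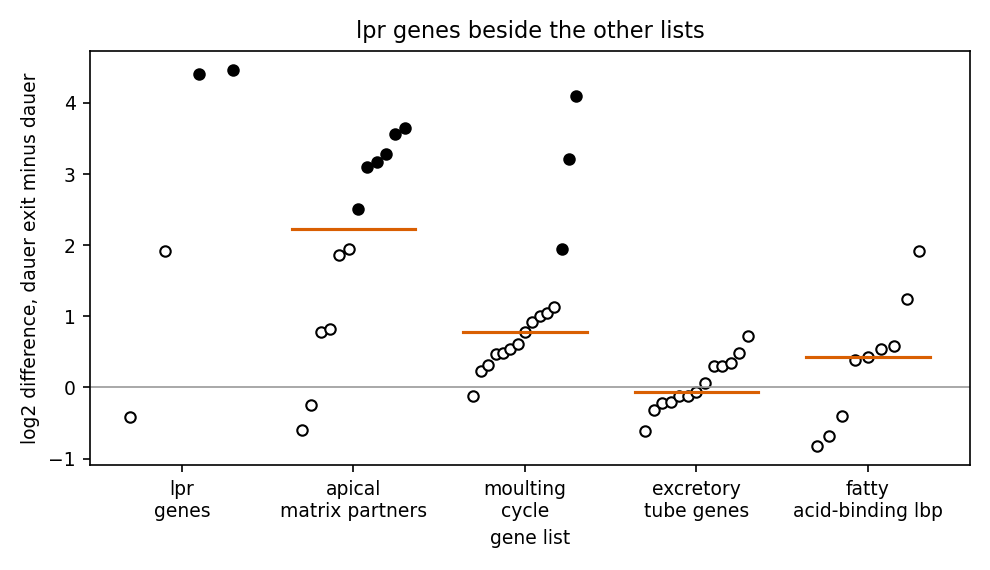
Log2 difference of dauer exit minus dauer (vertical axis) for the 4 lpr genes and for 4 other gene lists, 1 point per gene, with filled points at an adjusted p of 0.05 or less and orange lines at the list medians of 2.23, 0.78, -0.071 and 0.43. lpr-3 and lpr-4 lie above every gene of the other lists, and no excretory tube or lbp gene is filled.

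The genes whose 8 ratios ran most like those of lpr-4 were dpy-10 (Pearson r = 0.987) and dpy-7 (r = 0.986), both collagen genes, T06G6.6 (r = 0.985), Y73E7A.8 (r = 0.983) and nhr-259 (r = 0.977), a nuclear hormone receptor gene. For lpr-3 they were T06G6.6 (r = 0.987), nhr-259 (r = 0.985), cdc-48.2 (r = 0.981), an AAA ATPase gene, pdi-2 (r = 0.980), a protein disulfide isomerase gene, and dpy-18 (r = 0.979), a collagen prolyl hydroxylase gene. lpr-4 itself came 9th for lpr-3, and lpr-3 came 10th for lpr-4 (r = 0.973). In the order for lpr-3, lpr-1 stood 458th (r = 0.818) and lpr-2 stood 12751st (r = -0.465). These values are a description over 8 arrays that share the mix-stage pool and fall into 2 stages, so they mostly follow the difference between the stages.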

How the data were processed

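The authors processed the scanned arrays in limma (version not given in the sources used here), with normexp for the background and a within-array loess curve that weighted probes and spiked-in control RNAs differently. They deposited log2 ratios of Cy5 over Cy3, which were kept as they were. Columns of opposite dye orientation correlated at -0.70 to -0.046 and those of one orientation at 0.22 to 0.74, and each ratio was turned to own over mix-stage RNA by the dyes in the labels. Scanner intensities were not used here, so dim probes could not be filtered and a gene near background cannot be told from an unchanged one.

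Of 45220 features, 44123 had values on all 8 arrays, and 27263 of these carried 1 gene symbol. By accession 19293 matched the gene table of WBcel235. Log2 ratios of the probes of a gene were averaged, giving 15078 genes. A model with 1 coefficient per stage was fitted over all genes with lmFit and eBayes of limma 3.58.1 (R 4.3.3), with Benjamini-Hochberg adjustment and a threshold of 0.05. Differences between the stages are dauer exit minus dauer, the reverse of the direction used by the study. The procedure was tested on simulated data. The members and lists were chosen with earlier results of these data known. Named genes were all measured members, up to 4 called genes per list and direction, or the 2 of smallest p, and the 5 genes most correlated with each called member. icl-1, cut-1, ctl-1, sod-3, let-653, fbn-1, nhr-23, lbp-2, lbp-7, apt-9, clc-1 and grl-16 fell outside this rule and were named after their values were seen. Promoter and protein sequences were not analysed here.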

Additional observations from a re-analysis of the deposited data

Results flagged for a closer look

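Among 20 groups of 4 arrays examined for a value far from the rest (the 4 lpr genes and the 6 lpr-2 probes in each stage), 1 stood out, and chance gives about 1 in 20. It was lpr-2 probe 5129 in dauer exit, where replicate 3 had 0.57 and the other 3 arrays -0.14, -0.23 and -0.14. The gap was 0.889 of the range of the group. The value of 3.59 for probe 11641 on dauer-exit replicate 1 did not pass this criterion, because its other values were also spread.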

How the results depend on the processing

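lpr-3 and lpr-4 kept direction and call between the stages and in dauers against mix-stage, except within the Cy5 arrays, where both missed the threshold between the stages (5.82 and 5.08). lpr-1 in dauers against mix-stage kept its call in all 18 alternatives. Between the stages lpr-1 was called with a dye term (1.91), array weights (2.10) and genes matched by accession only (1.91, adjusted p = 0.0497). Over single arrays left out it ranged from 1.56 to 2.22, with a limma adjusted p of 0.0278 to 0.146. Within Cy5 and within Cy3 arrays it was not called (limma adjusted p = 0.0973 and 0.104). Against mix-stage in dauer exit lpr-1, never called, ranged from -0.54 to 0.055 (without replicate 4) over single arrays left out, and turned to 0.44 within Cy3 arrays. The lpr-2 call in dauers ranged from 0.56 to 0.77 without single arrays and was lost within Cy5 arrays (0.36) and for the probes 8854 (0.22), 10359 (0.78), 11641 (0.99) and 39589 (0.98), and turned for 12875 (-0.10). Between the stages lpr-2 turned for probes 11641 (0.15) and 12875 (0.33), and in dauer exit against mix-stage for probes 8854 (-0.067) and 39589 (-0.12).

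Counts of called genes moved more. Without single arrays, between the stages 146 to 371 were higher and 131 to 521 lower (283 and 321 with all). In dauer exit against mix-stage 17 to 90 were higher and 678 to 1771 lower (69 and 1367 with all), and in dauers 420 to 799 and 1406 to 2475 (742 and 2054 with all). Between the stages, leaving out dauer-exit replicates 1, 2 or 3 or dauer replicates 1 or 4 cut the higher calls by over 1.5 times (146, 174, 160, 162 and 163), and dauer-exit replicates 1 to 4 or dauer replicate 4 the lower ones (141, 163, 131, 176 and 138), while leaving out dauer replicate 2 raised the lower ones to 521. In dauer exit against mix-stage, replicates 1, 2 and 3 did so for the higher calls (29, 17 and 30) and replicates 2 and 4 for the lower (678 and 807), and in dauers replicate 4 for the higher (420). Within Cy5 arrays limma called 0 higher and 0 lower between the stages (1316 and 623 at an unadjusted p under 0.05), 11 higher and 610 lower in dauer exit and 235 higher in dauers. Within Cy3 arrays it called 58 higher between the stages, 19 higher and 655 lower in dauer exit and 854 lower in dauers. Array weights gave 150 higher and 2088 lower in dauer exit. Testing each probe counted probes, not genes, with 464 and 573, 139 and 2802, and 1640 and 4536. Same-numbered arrays of the stages deviated together at -0.15 to 0.23 over genes. Replicates 1 and 3, with own RNA in the same dye in both stages, had 0.070 and 0.23. Replicates 2 and 4, in opposite dyes, had -0.051 and -0.15. Dye is thus mixed into this check, which cannot show whether equal numbers mark pairs. The main fit did not take the numbers as pairs. With the replicate number as a block, lpr-3 (4.41, adjusted p = 0.0137) and lpr-4 (4.47, adjusted p = 0.00863) stayed called, and 253 genes were higher and 236 lower.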
